A study of Mus musculus with 9 samples.

Results

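Cells take up, store, export and sense iron through a small set of proteins, and the transcripts of 10 of their genes were followed here: Tfrc, Steap3, Slc11a2, Fth1, Ftl1, Slc40a1, Aco1, Ireb2, Fbxl5 and Trf. They were chosen by gene symbol: every probe set of the array that the platform annotation assigns to a member was taken, and for Tfrc also the 3 control probe sets for the mouse transferrin receptor that the array carries (3′, middle and 5′, named TransRecMur). This gave 26 of 45101 probe sets. Of the 26, 22 belonged to 1 member gene alone and covered 8 of the 18193 genes that have a probe set of their own. The other 4 were annotated to Ftl1 or Trf together with further genes and are reported as shared. The 10 genes were put together with results of all 3 comparisons known, so their levels and differences are given as descriptions, without p-values.

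The samples were Neuro2a cells, an established mouse neuroblastoma line of neural crest origin, exposed for 48 h to siMyT1, to siLSD1 or to siControl, with 3 arrays in each group and 9 in all. siMyT1 is directed at Myt1, a zinc finger protein that regulates transcription in developing neurons, and siLSD1 at Kdm1a, whose product LSD1 demethylates histone H3. siControl is the control siRNA, so every group had received an siRNA and no untreated cells were measured. The series concerns Myt1 as a subunit of a neural LSD1 complex. The labels state neither the sequences of the siRNAs nor the iron content of the culture medium, nor whether the 3 arrays of a group came from separate cultures. In bulk RNA, fewer cells with a transcript and less of it per cell cannot be told apart.

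Iron reaches most cells bound to transferrin, which the transferrin receptor carries into the endosome, where a ferrireductase reduces the metal and a divalent metal transporter moves it into the cytosol. Ferritin stores what is not used, and ferroportin exports it. When iron is scarce, the iron regulatory proteins bind hairpins called iron-responsive elements. Binding in the 5′ untranslated region of ferritin and ferroportin transcripts blocks their translation, whereas binding in the 3′ untranslated region of the transferrin receptor transcript keeps it from decay. Dividing cells, neuroblastoma cells among them, carry much transferrin receptor because iron is needed for DNA synthesis and respiration.

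Values are array intensities in the deposited, unnamed unit, and a difference is a difference of log2(value + pseudocount), with a pseudocount of 0.196 deposited units, which understates the change of dim probe sets. A probe set is said to pass where its limma p-value, adjusted by the Benjamini-Hochberg method over all 45040 probe sets tested, was below 0.05. The 9 arrays had medians of 0.302 to 0.424 units and summed to 196271 to 219953 units. Each siRNA lowered its target: Myt1 measured 0.660 ± 0.21 in siMyT1 and 4.90 ± 0.34 in siControl (SD, n = 3 each), and Kdm1a, by its brighter probe set, 4.49 ± 0.40 in siLSD1 and 29.0 ± 1.0 in siControl (SD, n = 3 each). Of 9 markers of sympathoadrenal neuroblastoma cells, 8 were measured, and their summed level lay between 103 and 110 units in siMyT1, 136 and 148 in siLSD1 and 126 and 140 in siControl. By limma, 4 of the 8 fell in siMyT1, and 4 rose and 1 fell in siLSD1, against siControl. Over all genes by brightest probe set, 3.57% rose and 1.56% fell in siMyT1, and 3.26% rose and 3.95% fell in siLSD1. Summed markers reached at most 0.266 units for 3 erythroid genes and 0.292 for 3 hepatocyte genes, 2 cell types of high iron traffic, 1.60 units for 4 macrophage genes and 3.14 for 3 oligodendrocyte genes. The 4 fibroblast markers summed to 1.74 to 2.33 units in siMyT1, 1.21 to 1.37 in siLSD1 and 1.29 to 1.57 in siControl, and 1 of them, Dcn, rose in siMyT1 (0.61, limma adjusted p = 0.0446). The part of these shifts in the iron transcripts was not tested.

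Tfrc, the receptor that carries transferrin-bound iron into the cell, is the member with the most probe sets. All 6 lay lower in siLSD1 than in siControl without overlap, as did 13.5% of all probe sets. The start of the gene is shown as that of the member described at most length: it lies on chromosome 16, at chr16:32608646-32608925 on the plus strand of GRCm38.p6, and comprises 250 bases before and 30 bases after the annotated start at 32608896, from RefSeq. Capitals mark, in order, CCAAT (first base at -124), ACGTG, the core bound by hypoxia-inducible factors (-2), and TGACG, a core of cyclic AMP response elements (14), counting the annotated start as 1 and the base before it as -1. These motifs were chosen after the sequence had been seen.
Tfrc promoter: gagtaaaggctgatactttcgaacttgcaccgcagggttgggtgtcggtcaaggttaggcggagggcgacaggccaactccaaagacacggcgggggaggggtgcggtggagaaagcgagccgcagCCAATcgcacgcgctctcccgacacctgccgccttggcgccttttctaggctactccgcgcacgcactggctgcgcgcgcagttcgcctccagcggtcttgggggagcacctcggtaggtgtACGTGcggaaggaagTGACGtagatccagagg
Searched on both strands of the 300-base RefSeq windows, with no 2 of these motifs overlapping in Tfrc, CCAAT was held by 37.4% of 32851 promoter windows, ACGTG by 19.6% and TGACG by 20.8%. Both windows of Tfrc, which has 2 annotated starts, held ACGTG and TGACG, and since the windows overlap these are the same letters. Among the 11 windows found for 6 member genes, ACGTG occurred in those of Tfrc alone, TGACG in those of Fth1 and Tfrc, and CCAAT in windows of Fth1, Ftl1, Steap3 and Tfrc. CACGTG, the core that Myc proteins bind, was in 0 of the 11 and in 7.15% of all windows. The loop of an iron-responsive element with its bulged C, sought on the gene strand in the 50 transcribed bases of each window, was in 0 of the 11 and in 1.55% of all windows. This search could not reach elements farther into a transcript, such as those in the 3′ untranslated region of Tfrc. The loop letters CAGTGN alone were in 1 of the 11, of Steap3, and in 7.08% of all. Slc40a1, Slc11a2, Trf and Fbxl5 had no window in the table. A match or its absence describes these letters only.

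In siLSD1 cells, all 6 Tfrc probe sets lay lower than in siControl cells, with no overlap between the arrays of the groups, at 62.2% to 85.5% of the siControl mean. Such a separation occurred in 13.5% of all probe sets, and the 6 sets measure the same gene on the same arrays. By its brightest probe set, 1452661_at, Tfrc measured 24.9, 21.8 and 25.5 units in siMyT1, 21.7, 20.2 and 20.4 in siLSD1, and 23.6, 25.6 and 23.7 in siControl. The siMyT1 arrays overlapped the siControl arrays, and the 3 siLSD1 arrays were the lowest of the 9. The siLSD1 minus siControl difference was -0.22 (SE 0.07, 95% interval -0.38 to -0.07), that of siMyT1 minus siControl -0.01 (SE 0.07) and that of siMyT1 minus siLSD1 0.21 (SE 0.07). The comparisons of siMyT1 and siLSD1 with siControl share the siControl arrays.

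The TransRecMur 3′ probe set read 6.14, 5.38 and 6.003 units in siMyT1, 4.53, 3.86 and 4.59 in siLSD1, and 6.10, 5.87 and 5.88 in siControl. Here the siLSD1 mean was 72.7% of the siControl mean (-0.45, SE 0.08, 95% interval -0.63 to -0.26). The 5′ probe set of the same transcript gave 1.85, 1.81 and 1.82 units in siMyT1, 1.46, 0.807 and 1.22 in siLSD1, and 1.90, 1.95 and 1.76 in siControl. At 62.2% of siControl, it showed the largest siLSD1 minus siControl difference of the 6 (-0.63, SE 0.16, 95% interval -0.98 to -0.28). The middle probe set stood at 1.64, 1.62 and 1.87 units in siMyT1, 1.30, 1.08 and 1.15 in siLSD1, and 1.88, 1.72 and 1.75 in siControl, with a siLSD1 mean of 66.0% of siControl (-0.53, SE 0.12). In all 3 the siLSD1 arrays stood apart below the other 6.

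In the remaining Tfrc probe sets the siLSD1 arrays were again the lowest of the 9. Probe set 1422966_a_at read 13.9, 12.0 and 13.3 units in siMyT1, 11.1, 7.70 and 11.1 in siLSD1, and 13.2, 12.3 and 12.8 in siControl (siLSD1 minus siControl -0.37, SE 0.12). Probe set 1422967_a_at read 2.94, 2.75 and 3.20 units in siMyT1, 2.44, 1.23 and 1.97 in siLSD1, and 2.74, 2.84 and 2.70 in siControl (-0.56, SE 0.17). Replicate 2 of siLSD1 was the lowest array in all 6 probe sets. Across the 9 arrays the log2 values of pairs of Tfrc probe sets correlated at r of 0.770 to 0.974, a description over arrays that share their group, RNA and scaling. The siMyT1 minus siControl differences of the 6 probe sets ran from -0.06 to 0.10, and those of siMyT1 minus siLSD1 from 0.21 to 0.65.

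**Figure D1:**
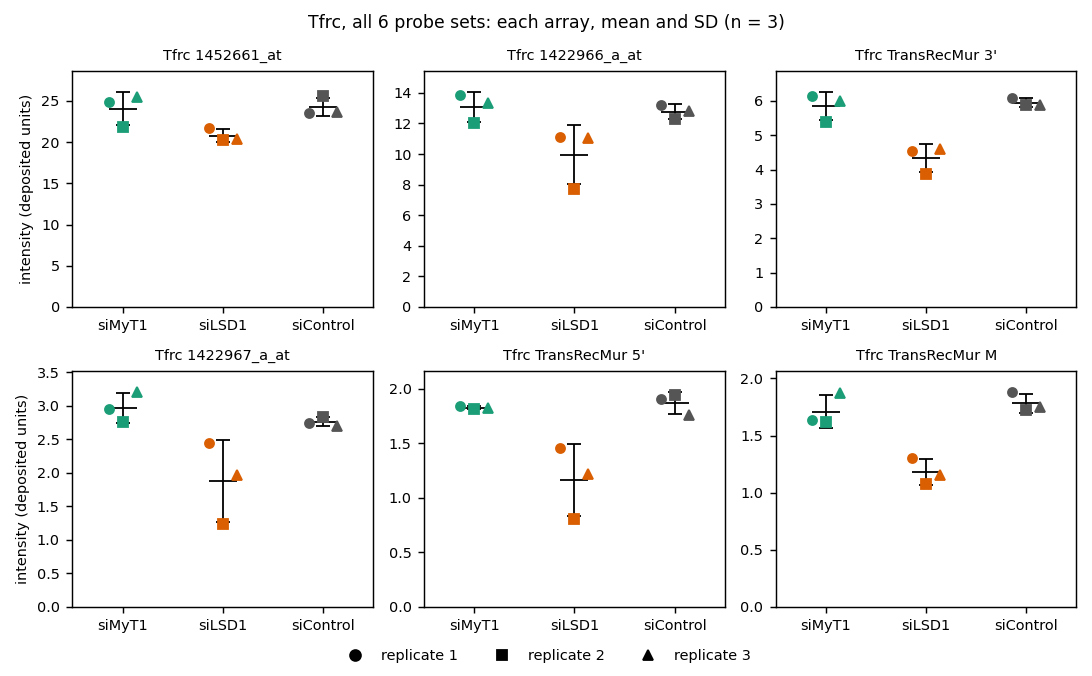
Intensity in deposited units (vertical axes, from 0) of the 6 Tfrc probe sets in siMyT1, siLSD1 and siControl. Symbols are the 3 arrays of a group, the long bar the mean and the error bar the SD (n = 3). In each panel the 3 siLSD1 arrays lie below all siControl arrays, with replicate 2 the lowest of the 9.

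Over all probe sets, 5.06% passed in siLSD1 against siControl, 2.26% as higher and 2.80% as lower, and the groups did not overlap, with siLSD1 below, in 13.5%. Of the 6 Tfrc probe sets, 3 passed as lower in siLSD1, all of them TransRecMur sets, and the brightest did not. Between siMyT1 and siLSD1, 11.2% of all probe sets passed, 7.64% as higher in siMyT1 and 3.61% as lower, and 5 of the 6 Tfrc probe sets were among the higher. The siMyT1 arrays lay above the siLSD1 arrays without overlap in all 6, and in 18.7% of all probe sets (below them in 8.33%). In siMyT1 against siControl 3.24% of all probe sets passed, 2.16% as higher and 1.08% as lower, and 0 of the 6 Tfrc sets did (0 also at an unadjusted limma p under 0.05), with overlapping groups in each. Since Tfrc was chosen with these comparisons known, nothing is read from the counts.

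The direction of the Tfrc difference between siLSD1 and siControl was the same in all 6 probe sets under every scaling, pseudocount and left-out array tried, while the number that passed was not. It was 3 as deposited, 4 after quantile normalization, 5 without dim probe sets, 4 with array weights, 2 with a pseudocount of 100, with the 2 groups alone or without the intensity trend, and 1 after centring each array on its median, where the differences ran from -0.55 to -0.14. Centring moves every siMyT1 minus siLSD1 difference by -0.128, every siLSD1 minus siControl difference by 0.0846 and every siMyT1 minus siControl difference by -0.0434. After it the siMyT1 minus siLSD1 differences of Tfrc ran from 0.08 to 0.52 and 0 of 6 passed, and 1 of 6 passed after quantile normalization and 2 with the 2 groups alone or without the trend. Without replicate 2 of siLSD1 the siLSD1 minus siControl differences ran from -0.48 to -0.20 and 1 probe set passed. That number was also 1 without siLSD1 replicate 3, siControl replicate 1 or siControl replicate 3, 2 without siControl replicate 2 and 4 without siLSD1 replicate 1. Between siMyT1 and siLSD1 it was 1 without siMyT1 replicate 3 or siLSD1 replicate 2, 2 without siMyT1 replicate 1 or siLSD1 replicate 3, 3 without siMyT1 replicate 2 and 5 without siLSD1 replicate 1.

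The 3′ and 5′ control probe sets of a transcript also report on the length of the labelled RNA. Their ratio for Tfrc was 3.33, 2.97 and 3.29 in siMyT1, 3.11, 4.78 and 3.75 in siLSD1, and 3.21, 3.02 and 3.34 in siControl. The ratio was highest in siLSD1 replicate 2, the array with the lowest Tfrc values. In siLSD1 replicate 3, at 3.75, it also lay above all siMyT1 and siControl arrays. For Actb the ratio was 1.12, 1.23 and 1.17 in siLSD1 and 1.15, 1.18 and 1.19 in siControl, and for Gapdh 0.786, 0.817 and 0.793 in siLSD1 and 0.775, 0.788 and 0.792 in siControl, again highest in siLSD1 replicate 2 for both. For Pcx it averaged 2.02 ± 0.051 in siLSD1 and 2.05 ± 0.43 in siControl (SD, n = 3 each). By the 5′ set the siLSD1 mean of Tfrc was 62.2% of the siControl mean, and by the 3′ set 72.7%. The part of RNA length in the Tfrc difference was not tested.

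**Figure D2:**
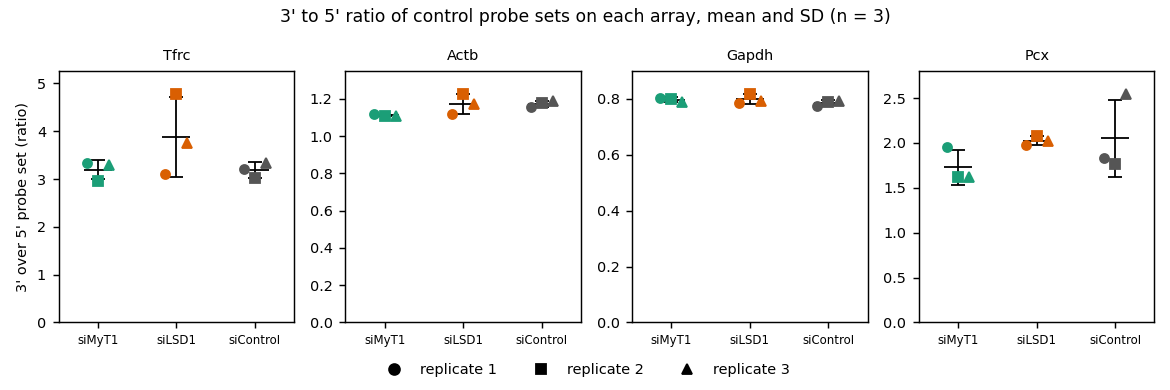
Ratio of the 3′ to the 5′ control probe set (vertical axes, no unit, from 0) of Tfrc, Actb, Gapdh and Pcx on each array, in siMyT1, siLSD1 and siControl, with mean and SD (n = 3). For Tfrc, siLSD1 replicate 2 stands at 4.78, above the other 8 arrays, and for Pcx 1 siControl array is the highest, at 2.55.

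Steap3, the endosomal ferrireductase that reduces iron released from transferrin, lay higher in siLSD1 than in siControl by all 3 of its probe sets, opposite to Tfrc. The siLSD1 arrays lay above the siControl arrays without overlap in all 3, and in 8.56% of all probe sets. Its values lay between 0.0570 and 1.18 units, beside array medians of 0.302 to 0.424. Those of its brightest probe set all lay above the array medians. Probe set 1430355_a_at read 0.438, 0.534 and 0.481 units in siMyT1, 0.833, 0.860 and 0.815 in siLSD1, and 0.391, 0.358 and 0.320 in siControl. The siLSD1 arrays stood apart above the other 6, at 235% of the siControl mean (0.90, SE 0.17, 95% interval 0.54 to 1.27). The siMyT1 arrays lay just above the siControl arrays without overlap (0.30, SE 0.17), as in 12.4% of all probe sets. They lay below the siLSD1 arrays (siMyT1 minus siLSD1 -0.60, SE 0.17). The siMyT1 minus siLSD1 difference passed as deposited, but not without siMyT1 replicate 1 or 3 or any 1 siLSD1 array. Nor did it pass in the fit of the 2 groups alone or with the replicate number as a block.

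The brightest Steap3 probe set, 1423468_at, read 0.739, 1.18 and 0.700 units in siMyT1, 1.12, 0.962 and 1.06 in siLSD1, and 0.560, 0.751 and 0.454 in siControl. Its siLSD1 arrays lay above all siControl arrays (0.68, SE 0.20), and the siMyT1 arrays overlapped both groups. Probe set 1453498_x_at read 0.558, 0.401 and 0.509 units in siMyT1, 0.570, 0.480 and 0.526 in siLSD1, and 0.0570, 0.254 and 0.273 in siControl. There both knockdowns lay above siControl without overlap, by 0.86 (SE 0.24) in siMyT1 and 0.94 (SE 0.24) in siLSD1. Such separations occurred in 12.4% of all probe sets for siMyT1 and 8.56% for siLSD1. The siControl value of 0.0570 lay below the pseudocount. The probe sets thus differ on how far siMyT1 lay above siControl. In siLSD1 against siControl, 1430355_a_at and 1453498_x_at passed. With the other pseudocounts the 3 siLSD1 minus siControl differences ran from 0.85 to 1.68 (pseudocount of 1 on the scaled values) and from 0.47 to 0.58 (pseudocount of 100). Only 1430355_a_at passed without siControl replicate 1 or 2 or any 1 siLSD1 array, in the fit of the 2 groups alone, without the intensity trend and with the replicate number as a block, and all 3 passed after median centring or quantile normalization.

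Slc11a2 encodes the divalent metal transporter DMT1, which moves iron from the endosome into the cytosol. Its brightest probe set, 1452078_a_at, read 4.99, 6.73 and 6.88 units in siMyT1, 4.55, 5.02 and 4.46 in siLSD1, and 5.79, 5.51 and 4.67 in siControl. The groups overlapped in each comparison, with siMyT1 minus siControl at 0.20 (SE 0.12), siLSD1 minus siControl at -0.17 (SE 0.12) and siMyT1 minus siLSD1 at 0.38 (SE 0.12). Probe set 1417584_at read 2.88, 3.02 and 2.73 units in siMyT1, 2.79, 2.42 and 3.11 in siLSD1, and 2.23, 2.47 and 1.91 in siControl. By that set siMyT1 lay above siControl without overlap (0.36, SE 0.11), as in 12.4% of all probe sets. The siLSD1 minus siControl difference was 0.31 (SE 0.11), so for siLSD1 the 2 probe sets ran in opposite directions. The third, 1426441_at, lay between 0.823 and 1.26 units on all arrays, and the fourth, 1441709_at, at most at 0.165, below the pseudocount.

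Ferritin stores iron in a shell of heavy and light chains. Fth1, the heavy chain that oxidises the incoming iron, read 94.8, 97.5 and 110.4 units in siMyT1, 97.8, 81.0 and 87.3 in siLSD1, and 96.7, 89.4 and 86.0 in siControl by 1427021_s_at. Its groups overlapped in every comparison, and the differences were 0.15 (SE 0.09) for siMyT1 minus siControl and -0.03 (SE 0.09) for siLSD1 minus siControl. The second Fth1 probe set, 1448771_a_at, averaged 89.4 ± 4.4 in siMyT1, 88.5 ± 2.2 in siLSD1 and 85.2 ± 2.8 in siControl (SD, n = 3 each). Its 95% interval for siLSD1 minus siControl ran from -0.08 to 0.19.

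The light chain gene Ftl1 had no probe set of its own. Probe set 1418364_a_at, shared with the pseudogene Ftl1-ps2, read 91.6, 99.3 and 111.8 units in siMyT1, 78.8, 78.2 and 77.5 in siLSD1, and 88.9, 90.9 and 86.5 in siControl. The siLSD1 arrays lay below all siControl arrays (-0.18, SE 0.07), as in 13.5% of all probe sets. The siMyT1 arrays lay above all siControl arrays (0.18, SE 0.07), as in 12.4% of all probe sets. The siMyT1 minus siLSD1 difference was 0.36 (SE 0.07), or 0.23 after median centring. The other shared set of that pair, 1422302_s_at, did not give this order, with 124 ± 7.0 in siMyT1, 112 ± 2.4 in siLSD1 and 112 ± 8.4 in siControl (SD, n = 3 each). A further set, 1422301_at, shared also with microRNA genes, lay between 2.91 and 4.30 units on all arrays with overlapping groups. These readings cannot be assigned to Ftl1 alone.

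Slc40a1 encodes ferroportin, the only iron exporter known in mammals. Probe set 1417061_at read 2.76, 2.86 and 2.82 units in siMyT1, 2.27, 2.25 and 2.11 in siLSD1, and 2.43, 3.05 and 2.39 in siControl. Probe set 1448566_at read 2.60, 2.59 and 2.87 units in siMyT1, 1.89, 1.87 and 1.96 in siLSD1, and 2.45, 2.49 and 1.93 in siControl. The siMyT1 and siLSD1 arrays stood apart in both sets (siMyT1 minus siLSD1 0.32, SE 0.10, and 0.45, SE 0.11), with the siControl mean between them. Such a separation, with siMyT1 above siLSD1, occurred in 18.7% of all probe sets, and both sets measure the same gene on the same arrays. The siLSD1 minus siControl differences were -0.22 (SE 0.10) and -0.23 (SE 0.11), with overlapping groups in the second set. The siMyT1 minus siLSD1 differences were 0.20 and 0.32 after median centring, where neither set passed, while 1448566_at passed as deposited and did not without siMyT1 replicate 3 or any siLSD1 array.

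**Figure D3:**
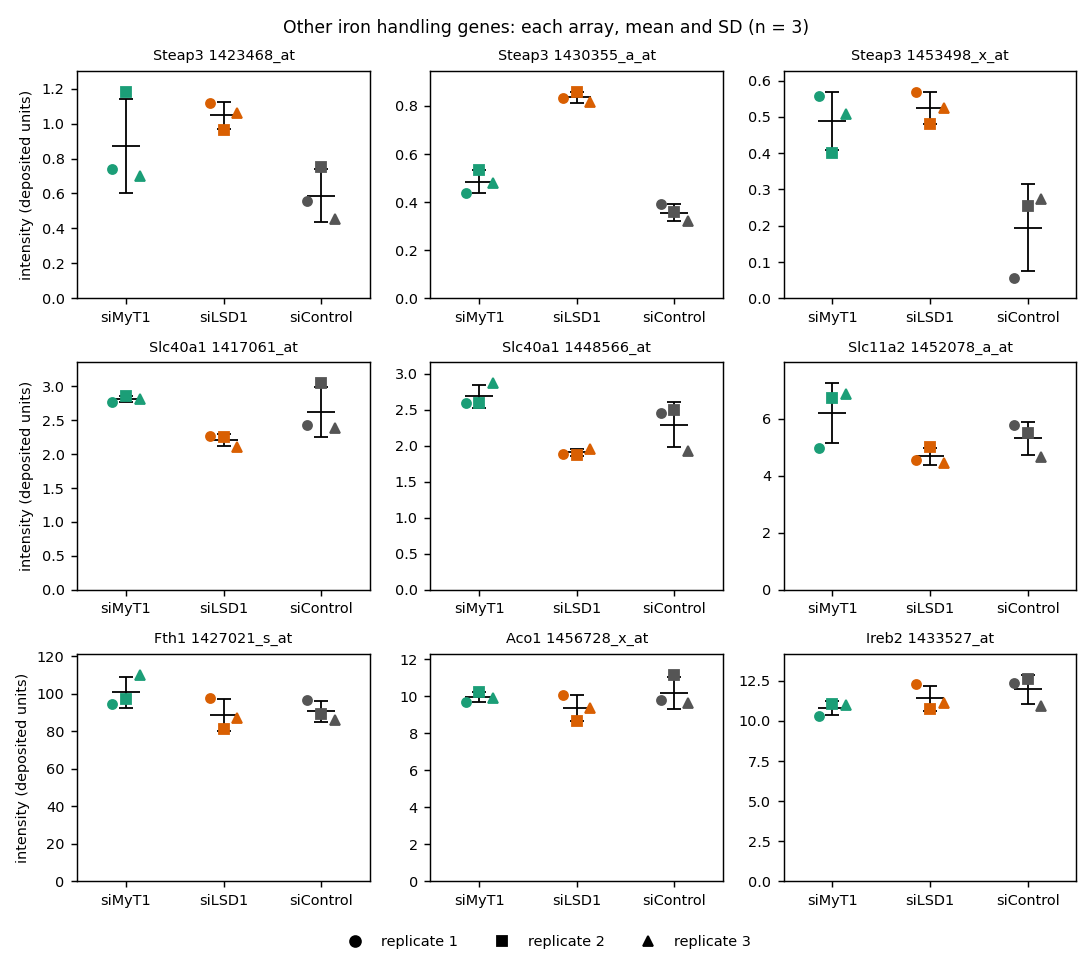
Intensity in deposited units (vertical axes, from 0) of 9 further probe sets, with the 3 arrays of siMyT1, siLSD1 and siControl as symbols, the mean as a long bar and the SD as error bars (n = 3). The 3 Steap3 panels show siLSD1 above siControl without overlap and the Slc40a1 panels siMyT1 above siLSD1, while the Slc11a2, Fth1, Aco1 and Ireb2 groups overlap in every comparison with siControl.

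As deposited, the genes of the iron sensors differed from siControl by at most 0.23 in size in either knockdown. After median centring the siLSD1 minus siControl difference was 0.315 for Aco1 by 1447080_at and 0.269 for Fbxl5. Aco1, the cytosolic aconitase that becomes iron regulatory protein 1 when it loses its iron-sulfur cluster, read 9.69, 10.2 and 9.91 units in siMyT1, 10.05, 8.69 and 9.36 in siLSD1, and 9.78, 11.2 and 9.63 in siControl by 1456728_x_at. The siLSD1 minus siControl difference was -0.12 (SE 0.08) there and -0.13 (SE 0.08) by 1423644_at, and the third, dimmer set 1447080_at gave 0.23 (SE 0.18). Ireb2, iron regulatory protein 2, read 10.3, 11.1 and 11.0 units in siMyT1, 12.3, 10.8 and 11.1 in siLSD1, and 12.4, 12.6 and 11.0 in siControl. Its differences from siControl were -0.15 (SE 0.08) in siMyT1 and -0.07 (SE 0.08) in siLSD1, and after median centring the second was 0.01. Fbxl5, the ubiquitin ligase subunit that binds iron and marks iron regulatory protein 2 for destruction, read 8.08, 7.08 and 6.09 units in siMyT1, 8.61, 8.32 and 7.06 in siLSD1, and 6.42, 8.11 and 6.54 in siControl. Its siLSD1 minus siControl interval ran from -0.07 to 0.44. The groups overlapped for all 3 genes in each comparison by their brightest probe set. By the second Aco1 set, 1423644_at, siLSD1 lay below siControl without overlap, as in 13.5% of all probe sets.

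Trf, the gene of the carrier transferrin itself, which liver cells secrete, had 1 probe set, shared with Srprb. It read between 0.0149 and 0.0414 units on the 9 arrays, far below the pseudocount, and no difference between groups can be drawn from it.

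Across the 22 probe sets of a single member, the siLSD1 minus siControl differences ran from -0.63 (Tfrc) to 0.94 (Steap3), with a median of -0.10, beside -0.03 over all 45040 probe sets. The siMyT1 minus siControl differences had a median of 0.08, beside 0.04 over all, and those of siMyT1 minus siLSD1 a median of 0.15, beside 0.07. In siLSD1 against siControl 5 of the 22 passed, 2 of Steap3 as higher and 3 of Tfrc as lower, beside 5.06% of all probe sets (2.26% higher, 2.80% lower). The split was 3 higher and 1 lower after median centring, and 4 and 4 after quantile normalization. In siMyT1 against siLSD1, 7 passed, of which 5 of Tfrc and 1 of Slc40a1 were higher and 1 of Steap3 lower, beside 11.2% of all (7.64% higher, 3.61% lower). That split was 0 higher and 1 lower after median centring, and 2 and 1 after quantile normalization. In siMyT1 against siControl 0 of 22 passed limma's adjusted threshold (3.24% of all) and 2 had an unadjusted p under 0.05 (14.9% of all), and 4 had groups without overlap, all with siMyT1 higher, beside 12.4% of all probe sets with siMyT1 higher and 6.51% with siMyT1 lower. Of the 8 brightest probe sets, 1 per gene, 0 passed in any comparison; at an unadjusted p under 0.05 there were 0 in siMyT1 against siControl, 2 in siLSD1 against siControl and 4 in siMyT1 against siLSD1. By their brightest probe set, 20.3%, 21.0% and 30.1% of all genes did so in these 3 comparisons, in that order.

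**Figure D4:**
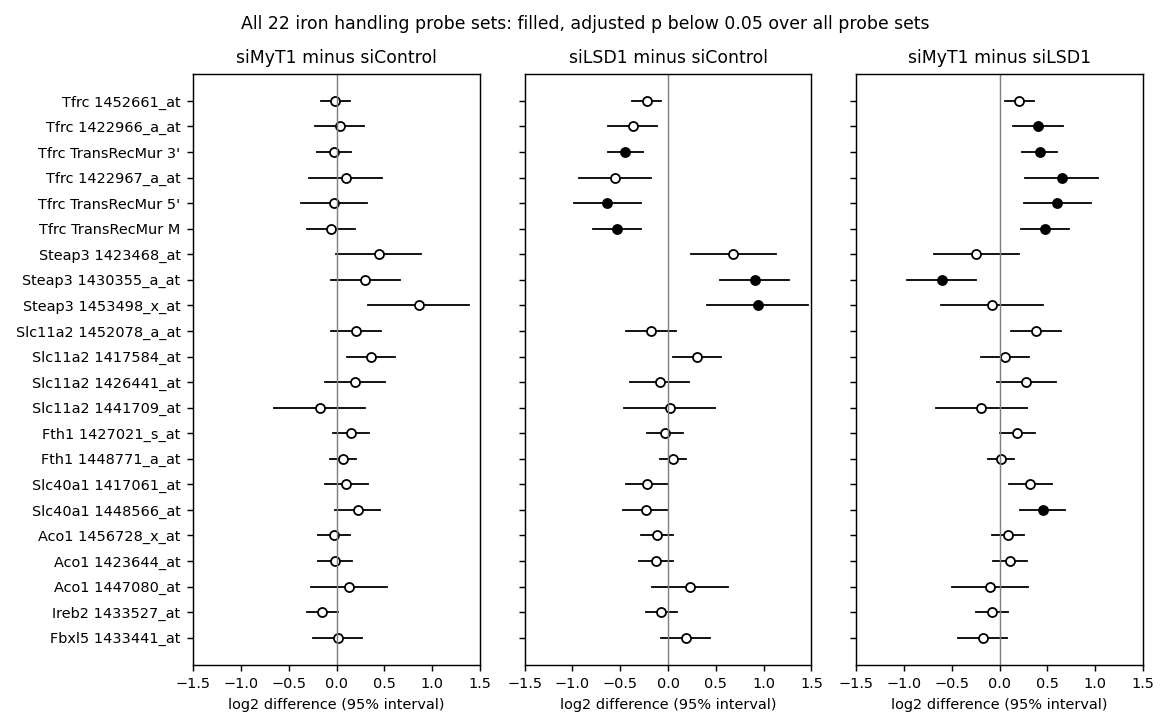
Log2 differences (horizontal axes) with 95% intervals of the 22 probe sets in siMyT1 minus siControl, siLSD1 minus siControl and siMyT1 minus siLSD1, 1 row per probe set. Filled points passed over all probe sets. In the siLSD1 minus siControl panel the Tfrc rows lie left of 0 and the Steap3 rows right of it.

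Beyond the members, 72 further iron genes in 7 lists were examined, of which 68 had a probe set of their own, taken at the brightest. Like the members, they were chosen with earlier results of these data known. The adjusted p-values given for them below therefore describe single genes and are no test of a list. Against siControl, 4 of the 68 rose and 0 fell in siMyT1, where 5.13% of all genes passed by their brightest probe set (3.57% higher, 1.56% lower). In siLSD1, 3 rose and 2 fell, beside 7.21% of all genes (3.26% higher, 3.95% lower). Between siMyT1 and siLSD1, 11 were higher in siMyT1 and 6 lower, beside 16.1% of all genes (11.3% higher, 4.77% lower). These splits differed with the scaling. After median centring they were 1 higher and 0 lower in siMyT1 against siControl, 6 and 1 in siLSD1 against siControl, and 6 and 10 in siMyT1 against siLSD1. After quantile normalization they were 6 and 6, 6 and 4, and 10 and 12, in the same order. Their median difference was 0.04, 0.003 and 0.08 in the 3 comparisons in that order, beside 0.05, -0.03 and 0.09 over all genes.

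Steap1, a relative of Steap3 in the Steap family of metalloreductases, rose in siMyT1, with 3.20, 3.85 and 3.28 units against 1.95, 1.96 and 2.14 in siLSD1 and 1.83, 2.10 and 1.92 in siControl. The siMyT1 minus siControl difference was 0.76 (SE 0.10, limma adjusted p = 0.00155) and that of siMyT1 minus siLSD1 0.72 (SE 0.10, adjusted p = 0.000766). Of 12 uptake genes it alone passed against siControl in siMyT1 and 0 passed in siLSD1, where 3 had an unadjusted limma p under 0.05 (21.0% of all genes), and the siLSD1 minus siControl difference of Steap1 was 0.04 (SE 0.10). Slc39a14, a zinc and iron transporter of the cell surface, was higher in siMyT1 than in siLSD1 (0.36, SE 0.09, adjusted p = 0.017).

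Among 11 genes of export and systemic control, Neo1 and Cp passed in siLSD1 against siControl. Neo1 encodes neogenin, a receptor for guidance cues that also holds the hemojuvelin coreceptor of the hepcidin pathway in liver. It measured 15.5, 17.3 and 18.0 units in siMyT1, 23.5, 24.6 and 23.8 in siLSD1, and 15.2, 15.4 and 15.1 in siControl, and rose in siLSD1 by 0.65 (SE 0.06, limma adjusted p = 9.86e-05). Cp encodes ceruloplasmin, the ferroxidase that works with ferroportin. It was dim, with 0.402, 0.317 and 0.478 units in siMyT1, 0.0170, 0.0416 and 0.185 in siLSD1, and 0.569, 0.315 and 0.295 in siControl, and fell in siLSD1 by 1.11 on the log2 scale (SE 0.26, adjusted p = 0.0274). Set against siLSD1, siMyT1 had Cp higher (1.14, adjusted p = 0.0129), and Neo1 (-0.50, adjusted p = 0.0004) and the hepcidin-restraining protease gene Tmprss6 (-0.80, adjusted p = 0.026) were lower.

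Of 12 measured genes of heme synthesis and breakdown, Alas1 and Hmox1 rose in siMyT1 against siControl. Alas1, the first enzyme of heme synthesis, read 6.45, 6.68 and 7.61 units in siMyT1, 5.59, 5.50 and 5.97 in siLSD1, and 5.41, 5.39 and 5.23 in siControl (siMyT1 minus siControl 0.36, SE 0.08, limma adjusted p = 0.0256). Hmox1, the oxygenase that opens heme and frees its iron, read 26.8, 28.3 and 27.9 units in siMyT1, 20.4, 19.1 and 21.0 in siLSD1, and 21.98, 24.3 and 20.3 in siControl (0.32, SE 0.07, adjusted p = 0.0327). In siLSD1 against siControl, Fech, which inserts iron into protoporphyrin, rose (0.34, SE 0.09, adjusted p = 0.0483) and Alad, the second enzyme of the pathway, fell (-0.31, SE 0.08, adjusted p = 0.0477). Between siMyT1 and siLSD1, 4 were higher in siMyT1 and 0 lower: Alad (0.52, adjusted p = 0.00129), Hmox1 (0.45, adjusted p = 0.00155), Alas1 (0.27, adjusted p = 0.039) and Cpox (0.46, adjusted p = 0.0393), the last outside the rule for named genes.

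Among 15 measured mitochondrial iron and iron-sulfur cluster genes, the cochaperone Hscb alone passed against siControl, and rose in siMyT1 (0.29, SE 0.07, limma adjusted p = 0.0441). Between siMyT1 and siLSD1, the scaffold Iscu (0.38, adjusted p = 0.00651) and Bola3 (0.31, adjusted p = 0.0215) were higher in siMyT1 and Isca2 (-0.29, adjusted p = 0.0241) lower. Of 6 storage and chaperone genes, Bola2, a partner of cytosolic glutaredoxin, was lower in siMyT1 than in siLSD1 (-0.50, SE 0.08, adjusted p = 0.00126), with 15.8, 17.2 and 17.5 units in siMyT1, 24.2, 21.9 and 25.5 in siLSD1, and 20.1, 18.6 and 21.5 in siControl. Of 4 measured further transcripts with an iron-responsive element, Cdc42bpa, a kinase gene whose element was described in the human transcript, was lower in siMyT1 than in siLSD1 (-0.41, SE 0.08, adjusted p = 0.00452). Against siControl, 0 of the 6 and 0 of the 4 passed in either knockdown; at an unadjusted limma p under 0.05 there were 1 of the 6 in each knockdown, and 1 of the 4 in siMyT1 and 2 in siLSD1, beside the 20.3% and 21.0% of all genes given above.

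Of 10 regulators of Tfrc transcription or mRNA decay, Mycn passed against siControl. Mycn, the neuroblastoma oncogene of the Myc family, whose relative Myc activates Tfrc, read 3.62, 4.10 and 3.45 units in siMyT1, 8.89, 8.06 and 8.37 in siLSD1, and 4.02, 4.97 and 4.46 in siControl. It rose in siLSD1 (0.89, SE 0.09, limma adjusted p = 0.000151). A relation of these regulators to the Tfrc level was not tested. Myc itself read 34.8, 35.4 and 39.5 units in siMyT1, 32.3, 24.6 and 27.9 in siLSD1, and 29.2, 29.1 and 30.005 in siControl. It was higher in siMyT1 than in siLSD1 (0.37, SE 0.09, adjusted p = 0.0171), as was Zfp36 (0.51, SE 0.11, adjusted p = 0.00867), which binds AU-rich mRNA and promotes its decay.

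**Figure D5:**
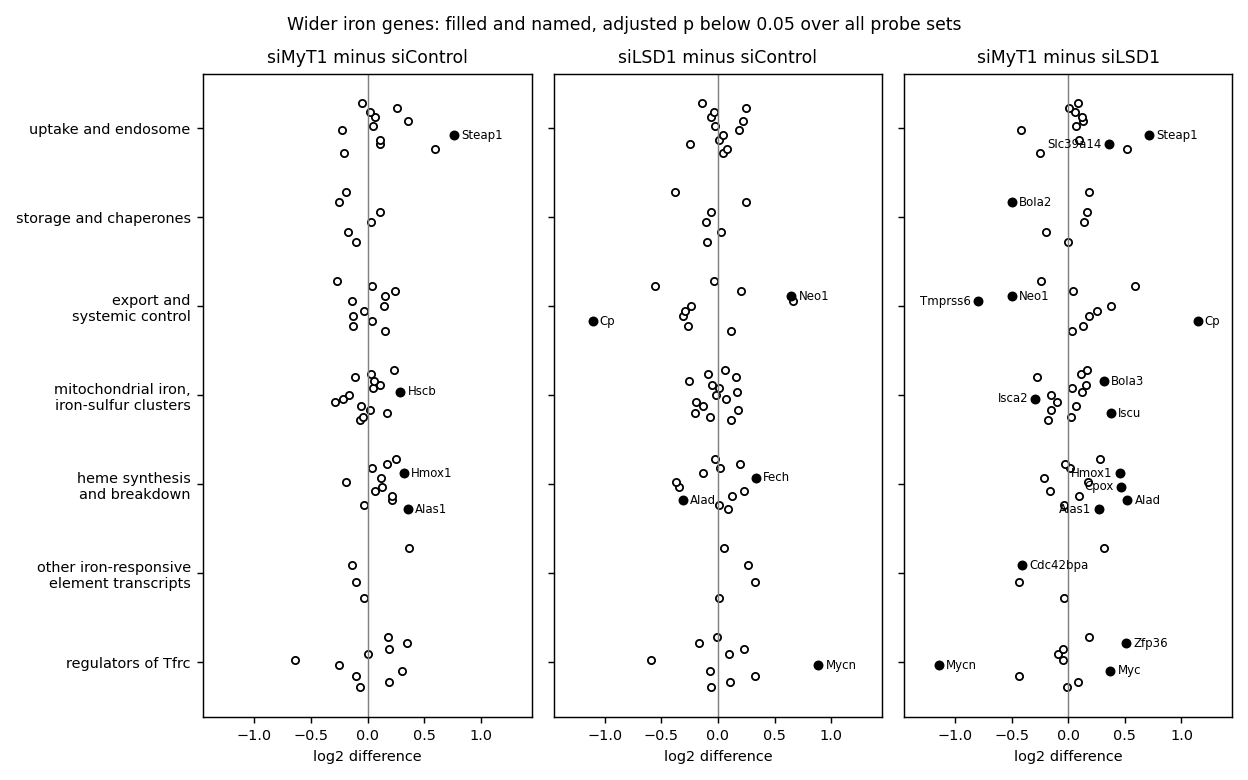
Log2 differences (horizontal axes) of the 68 further iron genes by list (rows) in siMyT1 minus siControl, siLSD1 minus siControl and siMyT1 minus siLSD1, 1 point per gene by its brightest probe set; Epas1 and Alas2 stand in 2 lists each. Filled, named points passed over all probe sets. The points farthest from 0 are Cp and Mycn, while most points lie near 0 in each panel.

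Steap1, Neo1 and Mycn passed in each of the 17 settings tried in both comparisons where they passed as deposited, and so did Alad, Bola2, Cdc42bpa, Hmox1 and Zfp36 in siMyT1 against siLSD1. The other calls did not, and the adjusted p is given as its highest value over the settings. In siMyT1 against siControl, Hscb missed the threshold without any 1 of the 6 arrays (up to 0.207), Hmox1 without any of them but siControl replicate 2 (0.15) and Alas1 without any but siMyT1 replicate 1 (0.112). All 3 also missed it after median centring, with the 2 groups alone, without the intensity trend and with the replicate block. In siLSD1 against siControl, Alad missed it without any array but siControl replicate 2, after both scalings, with a pseudocount of 100, with the 2 groups alone, without the trend and with the block (up to 0.237). Fech missed it without replicate 1 or 3 of either group, and under the last 4 of these (0.163). Cp missed it without replicate 1 or 2 of either group and with the 2 groups alone (0.121).

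Between siMyT1 and siLSD1, Iscu missed the threshold after median centring alone, at 0.0863, and Cp without siMyT1 replicate 3 or siLSD1 replicate 1 or 2 (up to 0.0565). Median centring and the fit without the trend each also ended the calls of Slc39a14, Bola3 and Myc. Slc39a14 further missed it without siMyT1 replicate 2 or 3 or siLSD1 replicate 1 or 2 (0.124), Bola3 without replicate 2 or 3 of either group (0.163) and Myc without siMyT1 replicate 3 or siLSD1 replicate 2 or 3 (0.231). Isca2 did so without siMyT1 replicate 1 or 2 or siLSD1 replicate 1 or 3, without the trend and with the block (0.0948). Cpox did so without siMyT1 replicate 2 or 3 or siLSD1 replicate 1 or 3, with a pseudocount of 100 and without the trend (0.168). Alas1 did so without any array but siMyT1 replicate 1, after both scalings, with the 2 groups alone, without the trend and with the block (0.433). Tmprss6 did so without any array but siLSD1 replicate 2, and with the block (0.114).

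The genes whose log2 values over the 9 arrays were most like those of the brightest Tfrc probe set, by Pearson's r among 12396 genes above the pseudocount, were Slc38a2 (r = 0.978), Phf2 (0.958), Ddx39b (0.952), Tram1 (0.943) and Plek (0.938). Slc38a2, a neutral amino acid transporter, read 65.5, 56.4 and 74.4 units in siMyT1, 53.6, 47.7 and 46.5 in siLSD1, and 62.5, 71.0 and 66.5 in siControl. Tram1, a protein of the translocation channel of the endoplasmic reticulum, read 27.0, 25.0 and 29.3 units in siMyT1, 22.004, 19.8 and 19.9 in siLSD1, and 27.8, 28.1 and 26.3 in siControl. In both genes and in Phf2, as in Tfrc, the siLSD1 arrays were the lowest. In Ddx39b and Plek, siLSD1 replicate 1 read above siMyT1 replicate 2. Low siLSD1 arrays are expected from the selection itself, since the genes were picked for their likeness to Tfrc over these same arrays. They are therefore no separate finding. The likeness describes 9 arrays that share RNA, scaling and group, and carries no p-value.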

How the data were processed

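Total RNA of Neuro2a cells had been hybridised to 1-colour arrays after biotin labelling, per the labels' protocols. The deposited values are linear intensities, 1 per probe set and array; the authors' summarisation and scaling are stated neither in the labels nor in the file header. Probe sets were named from GEO's platform annotation, and their Entrez identifiers were looked up in RefSeq's GRCm38.p6 gene table. The members and the further lists were chosen with earlier results of these data known. Intensities were multiplied by 1 constant (163.6, which sets the mean over arrays of the mean trimmed by 2% at each end to 500), a pseudocount of 32 was added and log2 taken, with no further normalization. limma 3.58.1 in R 4.3.3 fitted group means over all 9 arrays with a trended, moderated variance (6 residual degrees of freedom), leaving out 61 control probe sets. Tests were two-sided, adjusted by the Benjamini-Hochberg method over 45040 probe sets, with a threshold of 0.05. With 3 arrays against 3, an exact permutation test cannot go below p = 0.1. P-values measure the spread between these arrays, which may be technical, and the number of arrays limits the precision. The script was tested on simulated data. Text names all members, both targets, up to 3 called genes per list and comparison by adjusted p, and the 5 genes most like Tfrc. Alternatives were quantile normalization, median centring, pseudocounts of 1 or 100, leaving out dim probe sets, brightest probe sets, fits of 2 groups alone, no trend, array weights, a replicate block and leaving out each array.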

Additional observations from a re-analysis of the deposited data

How the results depend on the processing

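No result called in the analysis as deposited reversed its direction under the alternatives tried. Counts of calls depended on them. Over all probe sets, siMyT1 against siControl gave 1461 calls (975 higher, 486 lower), against 3163 (1671 and 1492) after quantile normalization, 2292 without dim probe sets and 699 without the intensity trend, and 1471 split as 795 and 676 after median centring. siLSD1 against siControl gave 2280 (1017 and 1263), against 4222 (2142 and 2080) after quantile normalization, 1265 without the trend, 3765 with array weights, and 2578 (1677 and 901) after median centring. siMyT1 against siLSD1 gave 5067 (3439 and 1628), against 6822 (3530 and 3292) and 4776 (1834 and 2942) with these 2 scalings. Member probe sets passing in siMyT1 against siControl numbered 0, against 1 after quantile normalization (Ireb2, lower), and 1 without dim sets and 1 with array weights (Steap3, higher). In siLSD1 against siControl they numbered 5, against 8 after quantile normalization, 8 without dim sets, 3 with the 2 groups alone, 3 without the trend and 0 with brightest sets alone. In siMyT1 against siLSD1 they numbered 7, against 3 after quantile normalization, 1 after median centring, 3 with the 2 groups alone, 4 without the trend and 1 with brightest sets alone (Slc11a2, higher). Further iron genes in siMyT1 against siControl numbered 4, against 12 after quantile normalization, 1 after median centring, 7 without dim sets, 2 with the 2 groups alone and 1 without the trend. In siLSD1 against siControl they numbered 5, against 10 after quantile normalization, 3 with a pseudocount of 100, 9 without dim sets, 2 with the 2 groups alone, 3 without the trend and 10 with array weights, and in siMyT1 against siLSD1 17, against 11 without the trend. Filtering dim sets and taking brightest sets change how many are tested; otherwise the cause was not tested. With 1 array left out, counts over all probe sets ran from 626 to 1395 in siMyT1 against siControl, 1246 to 1776 in siLSD1 against siControl and 3183 to 5170 in siMyT1 against siLSD1. Members ran from 0 to 0, 2 to 5 and 1 to 5 in the same order, and further iron genes from 1 to 2, 2 to 5 and 10 to 16. Over the alternatives that keep all arrays, single member differences came to pass 3 times in siMyT1 against siControl, came to pass 10 times and ceased to 9 times in siLSD1 against siControl, and 8 and 20 times in siMyT1 against siLSD1. Same-numbered arrays did not deviate together (correlations of deviations between -0.039 and 0.043), so no pairing by replicate number was seen, which does not exclude one. With the replicate block, 880, 1579 and 4005 probe sets passed in the 3 comparisons, 0, 3 and 6 members, and 1, 3 and 14 further iron genes. Under quantile normalization or median centring, uncalled differences changed sign for Aco1 (2 sets) and Fth1 (1427021_s_at in siLSD1 against siControl, 1448771_a_at in siMyT1 against siLSD1), Fbxl5, Ireb2, Slc11a2 (1417584_at), Tfrc (1422966_a_at in siMyT1 against siControl) and a shared Ftl1 set. Dim sets, among them those of Steap3, Cp and Trf, lie near or below the pseudocount, where the size of a log2 difference depends on it.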
